A study of Mus musculus with 21 samples.

Results

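In cycling C2C12 cells, 5218 wide H3K4me3 peaks held no PSME3 peak in any list. They were chosen from the 23663 peaks that the authors called for H3K4me3 on the pooled cycling libraries. A peak had to be at least 2000 bp and under 5000 bp wide, to overlap a peak in each of the 3 cycling H3K4me3 replicate lists by at least 1 bp, and to overlap no peak of the pooled PSME3 list or of any of the 3 PSME3 replicate lists. Of the 23663 peaks, 8521 had this width, and 8442 of those were found in all 3 replicates. The 5218 peaks without PSME3 make up 61.8% of these wide peaks, and the other 3224, which overlap PSME3 in at least 1 list, serve as the contrast. The peaks were thus selected on their width, on their H3K4me3 calls in cycling cells and on the absence of PSME3 calls, so none of these properties is a result here, and a peak without PSME3 is one where the caller listed none.

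C2C12 is a mouse myoblast line, a single line grown in culture, with no genetic change in the libraries used here. In CUT&RUN, a nuclease tethered by an antibody in permeabilized cells cuts out the DNA at the bound protein, and the released fragments are sequenced. Cycling cells were grown in 20% FBS, frozen in 10% DMSO without fixation, and assayed as 3 replicates with each antibody. Day 2 cells were switched at confluency to 2% horse serum and collected 48 h later. They were assayed with 1 library per antibody in each of 4 preparations, and values of day 2 cells are always given in this order: cells used fresh and native, cells used fresh after crosslinking (5 min in 0.1% formaldehyde), cells frozen native and cells frozen after crosslinking. The 4 preparations are different treatments, not replicates of each other, and frozen native is the one that matches the cycling cells.

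H3K4me3 is a histone mark laid down around the start sites of active genes, where unmethylated CpG islands recruit the enzymes that write it. Its domains usually span a nucleosome-depleted start site and the first nucleosomes of the gene, and wide domains often carry several start sites or a strongly used one. PSME3 is a nuclear cap of the proteasome that has also been found on chromatin. When myoblasts leave the cell cycle and fuse, genes of replication and mitosis are shut off and muscle genes are turned on, so the promoters of both kinds of gene are of interest in a comparison with day 2.

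The deposited lists give the position, fold enrichment over background and q-value of each peak. Without read numbers the depth of a library is unknown, and a peak can be missing because a library was shallow. Cycling H3K4me3 replicate 2 stood apart from the others, with 40999 peaks of a median width of 662 bp against 18077 and 19365 peaks of 1781 and 1784 bp. Fold enrichment was therefore compared within a list only, or as a percentile among the wide peaks of that list. As a check of the cell type, 8 of 8 myoblast marker genes (among them Myod1, Myf5, Cdh15 and Des) lay within 1 kb of a pooled H3K4me3 peak, against 3 of 10 fibroblast and adipogenic, 1 of 8 endothelial, 2 of 8 immune and 3 of 8 neural markers. Pdgfra, Pecam1, Ptprc and Snap25 had none. Egfl7, not counted among the endothelial markers because no boundary of it in the gene table was near a peak, had a RefSeq start inside a weak one.

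The 6 promoters below show the kinds of sequence that lay under wide peaks without PSME3. They were taken from the strongest of these peaks (Tdp1, Lpar6), from those whose rank shifted down most by day 2 (Mybl2, Bub1b, Melk) and from those with no peak called at day 2 (Selp). Each is the stretch of 250 bases before the RefSeq start site on mouse build GRCm38.p6 (mm10), written 5′ to 3′ on the strand of the gene, and the capitals mark CG dinucleotides. The stretches are chr12:99884268-99884517 (Tdp1), chr14:73237641-73237890 (Lpar6), chr2:163054385-163054634 (Mybl2), chr2:118597961-118598210 (Bub1b), chr4:44300667-44300916 (Melk) and chr1:164115014-164115263 (Selp), all on the plus strand.
Tdp1: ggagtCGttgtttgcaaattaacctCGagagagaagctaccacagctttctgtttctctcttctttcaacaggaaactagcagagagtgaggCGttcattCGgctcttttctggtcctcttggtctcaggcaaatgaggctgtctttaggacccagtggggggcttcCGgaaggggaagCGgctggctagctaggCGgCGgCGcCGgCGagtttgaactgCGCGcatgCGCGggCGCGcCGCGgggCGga
Lpar6: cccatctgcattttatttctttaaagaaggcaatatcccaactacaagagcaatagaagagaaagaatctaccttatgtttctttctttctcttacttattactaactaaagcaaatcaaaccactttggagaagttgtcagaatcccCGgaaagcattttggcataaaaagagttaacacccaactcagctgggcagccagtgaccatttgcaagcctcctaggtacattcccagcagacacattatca
Mybl2: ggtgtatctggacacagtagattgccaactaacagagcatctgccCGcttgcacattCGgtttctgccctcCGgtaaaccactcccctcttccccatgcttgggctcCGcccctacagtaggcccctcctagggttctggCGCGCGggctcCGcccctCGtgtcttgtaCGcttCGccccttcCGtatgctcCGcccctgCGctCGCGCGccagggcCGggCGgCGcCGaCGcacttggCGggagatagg
Bub1b: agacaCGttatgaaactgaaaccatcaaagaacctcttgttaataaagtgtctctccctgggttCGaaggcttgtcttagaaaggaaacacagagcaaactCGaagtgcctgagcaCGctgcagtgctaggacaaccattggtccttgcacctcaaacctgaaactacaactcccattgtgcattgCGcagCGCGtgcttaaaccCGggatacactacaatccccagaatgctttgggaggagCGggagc
Melk: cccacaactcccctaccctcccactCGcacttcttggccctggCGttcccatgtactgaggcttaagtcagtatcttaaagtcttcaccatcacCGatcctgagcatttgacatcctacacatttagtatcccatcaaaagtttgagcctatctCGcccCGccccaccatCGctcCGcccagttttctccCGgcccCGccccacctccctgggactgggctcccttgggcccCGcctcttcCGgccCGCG
Selp: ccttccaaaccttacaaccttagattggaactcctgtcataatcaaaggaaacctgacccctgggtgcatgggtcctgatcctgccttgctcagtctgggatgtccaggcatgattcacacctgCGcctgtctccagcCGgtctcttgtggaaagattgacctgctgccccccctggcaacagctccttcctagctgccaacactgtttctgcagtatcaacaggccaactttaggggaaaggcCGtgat
Tdp1 and Mybl2 held 20 and 23 CG dinucleotides, Melk 13 and Bub1b 9, whereas Selp held 3 and Lpar6 only 1. A wide H3K4me3 peak without PSME3 could therefore lie over a CpG-rich or a CpG-poor start.

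The peaks without PSME3 were mostly at genes. Of the 5218, 4438 (85.1%, exact 95% Clopper-Pearson interval 84.1 to 86.0%) lay within 1 kb of a gene boundary, start or end, 656 (12.6%) lay inside a gene but away from its boundaries, and 124 (2.38%) lay outside genes. The contrast peaks had nearly the same share near a boundary, 85.9% (interval 84.7 to 87.1%), and among all 23663 pooled H3K4me3 peaks the share was 52.4%. A start site of the RefSeq promoter table lay inside 3725 of the peaks without PSME3 (71.4%) and inside 73.9% of the contrast peaks. Starts on both strands, as at divergent gene pairs, were found in 14.0% (interval 13.1 to 14.96%) and 16.7% (interval 15.5 to 18.1%). These intervals cover counting error only. Contrast peaks were also wider, and a wider peak has room for more starts. The shares of starts are not matched on width.

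Their pooled H3K4me3 fold enrichment ranged from 2.12 to 28.1 with a median of 13.7, and their median width was 2844.5 bp. The contrast peaks had medians of 15.5 and 3183.5 bp. The strongest peak without PSME3 lay at Chpf2, which encodes a chondroitin synthase subunit (chr5:24585284-24589033), and had a fold enrichment of 28.1 in the pooled list and 25.9, 20.7 and 46.3 in the 3 cycling replicates. Next came Gnb2, a G protein beta subunit (27.6), Lpar6, a receptor for lysophosphatidic acid (27.5), Sim2, a bHLH-PAS transcription factor (27.4), and Dpysl3, a cytoskeletal regulator (27.2). The others of the 12 strongest, from 26.6 down to 26.0, lay at Ddr2 (a collagen receptor kinase), at Efcab11 and Tdp1 (Tdp1 repairs topoisomerase lesions), at Slc1a5 (a glutamine transporter), at Gm17057 with a start of the actin-binding Lima1 inside, at Jam2 (a junctional adhesion molecule), at Tln2 (talin 2) and at 4933427D14Rik and Txndc17. All 12 had a peak in each of the 4 day 2 libraries. A median of 66278.5 bp separated a peak without PSME3 from the nearest cycling PSME3 peak, and 239 of the 5218 had one within 5 kb.

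At the limits of the width rule, the narrowest members were 2000 bp wide. Among them, 1 lay at Rpl4 and Snapc5 (pooled fold enrichment 8.14) and another nearest to Gm40121 (3.61). Just outside, 2 of 3 replicated peaks that were 1 bp narrower were without PSME3 as well, with fold enrichments of 11.5 and 14.4. The widest lay at Mars2 (1 bp below the upper limit, pooled fold enrichment 20.0), at the cell cycle gene Ccnd2 (4984 bp, 7.64) and at Ndufs8 and Tcirg1 (4983 bp, 24.0), and no replicated peak was 5000 bp wide. In the class below the lower limit, from 1500 to under 2000 bp, 76.1% of 2089 replicated peaks were without PSME3, and in the class above the upper limit, from 5000 to under 5500 bp, 46.2% of 355.

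Peaks without PSME3 were a larger share of the narrower and weaker wide peaks. Of the peaks from 2000 to under 2500 bp wide, 71.5% (interval 69.7 to 73.4%) had none, and of those from 4500 to under 5000 bp wide, 51.1% (interval 46.9 to 55.3%). By quintiles of the pooled H3K4me3 fold enrichment, the share was 71.1% in the weakest quintile, 70.5%, 63.0% and 58.5% in the next 3 and 46.0% (interval 43.6 to 48.4%) in the strongest. Over all pooled H3K4me3 peaks of any width, 75.3% had no PSME3 peak. A longer peak has more room to overlap another by chance, and how far that sets the gradient was not tested.

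**Figure D1:**
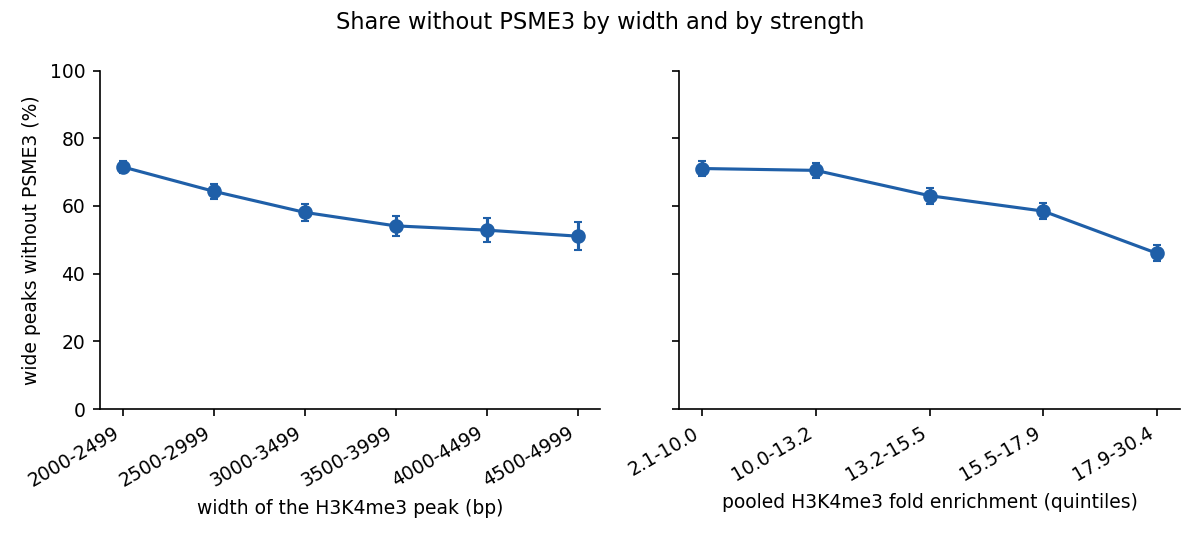
Percent of wide, replicated H3K4me3 peaks with no cycling PSME3 peak, by width of the peak in bp (left) and by quintiles of the pooled H3K4me3 fold enrichment (right), with exact 95% intervals. The share falls from 71.5% in the narrowest to 51.1% in the widest class and from 71.1% in the weakest to 46.0% in the strongest quintile.

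Most of the contrast rests on the pooled list and on PSME3 replicate 3. A peak of the pooled PSME3 list overlapped 2915 of the 8442 wide peaks, and one of replicates 1, 2 and 3 overlapped 517, 444 and 1757. Of the 3224 contrast peaks, 1142 overlapped PSME3 in the pooled list only, 1584 in 1 replicate list, 360 in 2 and 138 in all 3. The contrast peaks with the highest PSME3 fold enrichment lay at Fbrs and Prr14 (20.2), Rab11fip5 (6.68), Yif1a (6.58) and Daxx and Zbtb22 (6.20), each in all 3 replicate lists. Their pooled H3K4me3 fold enrichments of 17.0, 14.0, 13.2 and 10.2 lay within the range of the peaks without PSME3.

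The X chromosome stood apart. Of its 239 wide peaks, 223 (93.3%, interval 89.4 to 96.1%) had no PSME3 in any list, whereas the autosomes ranged from 51.9% (chromosome 19) to 67.8% (chromosome 13), with a median of 60.2%. Autosomal peaks of the same width and fold enrichment had a share of 67.0%. The pattern was noticed after the values were seen, and since PSME3 calls chose the peaks, it is given as a description with no test. It was present in each list: PSME3 was listed at 5.02% of the X peaks and 35.4% of the autosomal ones in the pooled list, at 0.837% and 6.28% in replicate 1, at 0 of 239 and 5.42% in replicate 2, and at 3.35% and 21.3% in replicate 3. Counted over all widths, 25 of the 5812 pooled PSME3 peaks (0.430%) lay on X, against 524 of the 23663 H3K4me3 peaks (2.21%). The nearest PSME3 peak to an X member was at a median of 568005 bp, against 62805 bp on the autosomes.

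H3K4me3 itself was present but weaker on X. The log2 difference in median fold enrichment between the wide X peaks and the autosomal ones was -0.47, -0.40 and -0.43 in the 3 cycling replicates (medians of 12.1, 7.49 and 16.2 on X against 16.8, 9.89 and 21.8). In the day 2 libraries, which the rule did not use, the difference was -0.39, -0.42, -0.47 and -0.41. All 4 were negative, with a mean of -0.42 and an SD of 0.033 over the libraries. An exact sign-flip permutation test, two-sided, gave p = 0.13, and no smaller p is possible with 4 libraries. Between 96.9% and 99.6% of the X members had a peak in each day 2 library. The copy number of X in these cells was not measured here, and its part in the lower signal cannot be told apart from other causes.

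**Figure D2:**
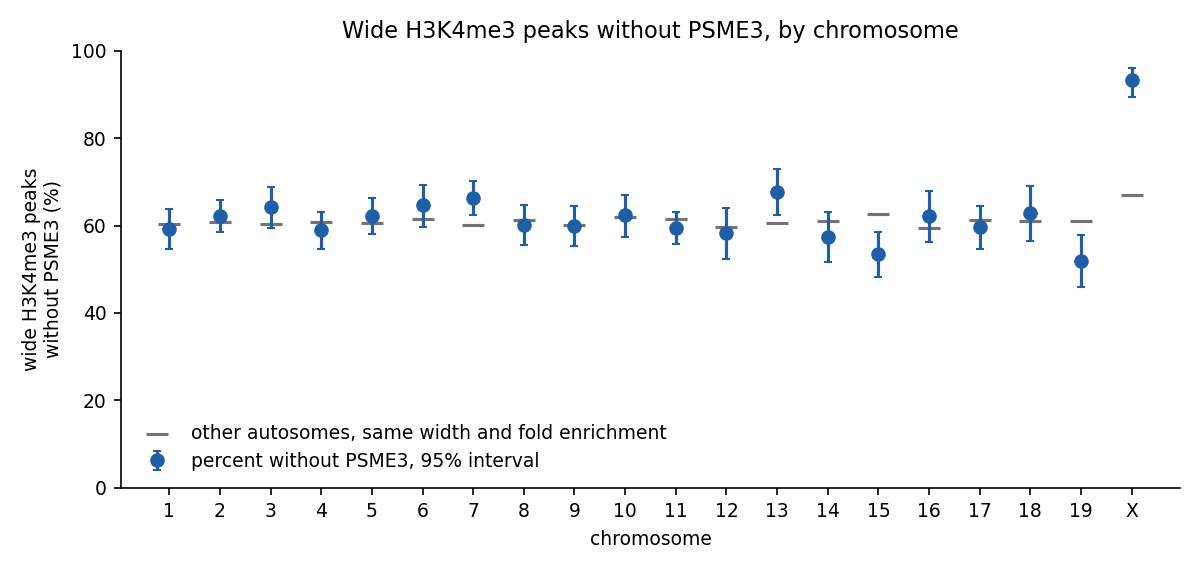
Percent of wide, replicated H3K4me3 peaks with no cycling PSME3 peak on each chromosome (points, with exact 95% intervals) and the same percent among the other autosomes at matched width and fold enrichment (dashes). X lies at 93.3%, and the autosomes lie between 51.9% and 67.8%.

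The strongest X members lay at Kdm6a, which encodes a histone H3K27 demethylase (chrX:18161254-18165415, pooled fold enrichment 22.8), Eif2s3x, a subunit of a translation initiation factor (19.1), Pbdc1 (18.4), the transcription factor Tfe3 (17.6), Brwd3 (17.4) and Uba1, the ubiquitin-activating enzyme (17.4). At Kdm6a the fold enrichment was 24.8, 16.6 and 35.0 in the cycling replicates and 11.1, 15.8, 26.4 and 19.7 in the 4 day 2 libraries. That placed it at or above the 94.4th percentile of the wide peaks in every library, although no PSME3 peak lay within 992336 bp. The 16 X peaks that did hold PSME3 included those at Med14, Usp9x, Pqbp1 and Timm17b, and those at Ftx and Jpx, 2 noncoding genes of the X-inactivation centre. Among X peaks with a pooled PSME3 call, the PSME3 fold enrichment was 2.65 at Med14, 2.77 at Usp9x, 2.81 at Jpx, 3.22 at Acot9, 3.29 at Tbl1x and 3.435 at Gnl3l, against a median of 2.92 over the pooled PSME3 list.

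The share of genes that were near peaks without PSME3 only ranged widely between gene lists. Of the 7997 protein-coding genes within 1 kb of a wide peak, 4763 (59.6%) were near peaks without PSME3 only, and of the 6447 with a start site inside a wide peak, 3856 (59.8%) started in one without PSME3 only. For cytosolic ribosomal protein genes the count was 38 of 46 (82.6%), out of 82 in the list, of which 79 were near a pooled H3K4me3 peak of any width. It was 53 of 67 (79.1%) for mitochondrial ribosomal protein genes and 47 of 65 (72.3%) for respiratory chain genes. Extracellular matrix genes had 15 of 19 (79.0%), growth factor and cytokine signalling genes 23 of 31 (74.2%) and cell cycle genes 27 of 39 (69.2%). Chromatin regulators lay lower, at 23 of 46 (50%), and the H3K4 methyltransferase genes were split. Kmt2a, Kmt2b, Kmt2c and Kmt2d were near contrast peaks only, whereas Setd1a and the complex subunits Wdr5, Rbbp5, Men1 and Cxxc1 were near peaks without PSME3 only. Dpy30, another complex subunit, had a start inside a contrast peak but no boundary near a wide peak. These genes were picked from the list after their values were seen. Proteasome genes had 25 of 38 (65.8%), and Psme3 itself was near a contrast peak. Among other gene classes, 94 tRNA genes were near peaks without PSME3 only and 21 near a contrast peak (81.7% against 59.6% for protein-coding genes), and many tRNA genes share a cluster and hence a peak. These shares use PSME3 calls and are given as a description with no test.

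**Figure D3:**
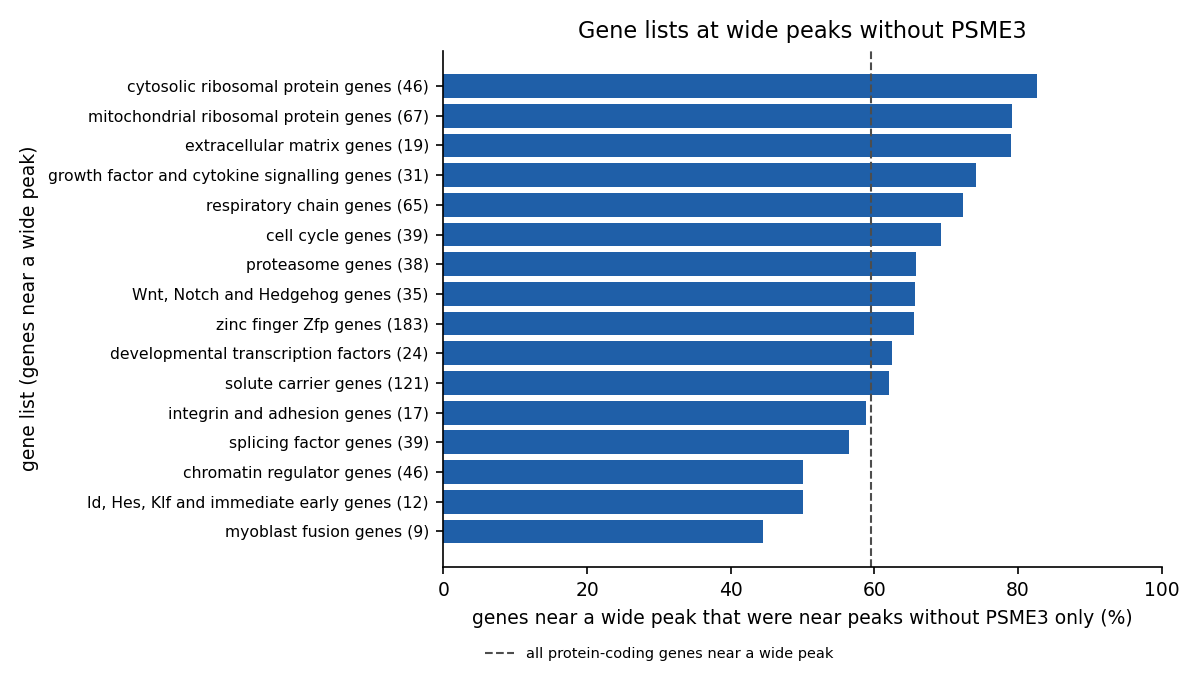
Percent of the genes near a wide H3K4me3 peak that were near peaks without PSME3 only, for each gene list reported here with at least 9 such genes (number in brackets). The dashed line marks all protein-coding genes at 59.6%, and the bars run from 44.4% for myoblast fusion genes to 82.6% for cytosolic ribosomal protein genes.

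Counting a boundary within 1 kb or a RefSeq start inside, 8 of 28 myogenic regulators (28.6%), 7 of 49 sarcomere genes (14.3%) and 9 of 26 myoblast fusion genes (34.6%) had a wide peak of either kind, against 8385 of all 21900 protein-coding genes (38.3%). Peaks of 5000 bp or more are left out by the width rule and do not count here. Of the 28 myogenic regulators, 22 had a pooled H3K4me3 peak of any width within 1 kb of a boundary, and 6 a wide replicated one. Of these, 5 were near peaks without PSME3: Msc (a bHLH repressor of myogenesis, pooled fold enrichment 6.54), Myf6 (a myogenic factor, 5.54), Pitx3 (8.85), Tcf12 (an E protein partner of MyoD, 16.2) and Vgll2 (a TEAD cofactor, 6.18). Tead1 was near a contrast peak. A further 2, the MADS-box factors Mef2a (13.2) and Mef2c (7.27), had a start inside a peak without PSME3 but no boundary near one. Apart from Tcf12 these values lay below the median of 13.7. Of the myoblast fusion genes, 4 were near peaks without PSME3 (Bin1 at 13.9, Dock1 at 13.3, Dock5 at 18.01 and Jam2 at 26.2) and 5 near contrast peaks (Cd81, Cdh2, Ehd1, Ncam1 and Vcam1). Among sarcomere genes, Mylk2 (3.16) and Tnnc1 (20.7) were near peaks without PSME3, and 2 others near contrast peaks. Ldb3, a Z-disc protein (9.17), Myl4, a myosin light chain (15.07), and Synpo2l (6.74) had a start inside a peak without PSME3. Of the myoblast markers, Msc was near a peak without PSME3 and 1 other gene near a contrast peak, and of the fibroblast and adipogenic markers Cebpa (11.1) was.

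For the remaining lists the count near peaks without PSME3 only was 10 of 17 integrin and adhesion genes, 23 of 35 Wnt, Notch and Hedgehog genes, 15 of 24 developmental transcription factors, 6 of 12 Id, Hes, Klf and immediate early genes, 120 of 183 zinc finger Zfp genes, 22 of 39 splicing factor genes and 75 of 121 solute carrier genes. These shares lay between 50% and 65.7%. Immune markers had no wide peak within 1 kb of a boundary and no start inside one. Nor did the endothelial markers have one near a boundary, but a RefSeq start of Egfl7, a vascular matrix protein, lay inside a weak peak without PSME3 (pooled fold enrichment 5.03). In addition, 1 neural marker had a contrast peak. Of 1005 miRNA hairpins in the RefSeq table, 53 lay inside peaks without PSME3 and 30 inside contrast peaks.

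Most promoters under wide peaks of both kinds were rich in CpG. RefSeq windows of 300 bases, from 250 before to 50 after the start, were available for 5161 starts in peaks without PSME3 and for 3434 in contrast peaks. Their median GC content was 62.0% and 63.3%, and their median ratio of observed to expected CG dinucleotides 0.821 and 0.806, against 48.0% and 0.218 for 19717 windows with no pooled H3K4me3 peak. The ratio was above 0.6 in 80.9% of the windows of peaks without PSME3 and in 83.3% of those of contrast peaks. X members had a lower ratio than autosomal members, 0.723 against 0.826. The letters GGGCGG of a GC box were found on either strand in 65.6% of the windows of peaks without PSME3 and in 74.3% of those of contrast peaks, and in 35.6% of all 32817 windows. CCAAT was found in 35.1% and 41.9% (37.4% of all). The order was the other way for CCGGAA, the core bound by ETS factors (34.6% and 29.2%, 14.9% of all), for CACGTG, an E-box bound by Myc (11.5% and 8.68%, 7.15% of all), and for TGACGTCA, the site of CREB (4.15% and 2.83%, 1.79% of all). Weighting the contrast windows to the widths of the members gave 74.2%, 42.2%, 29.0%, 8.76% and 3.01% in the same order.

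For the other motifs the 2 sets are given in the same order. CAGCTG, the E-box bound by MyoD, was in 14.1% of both sets and in 16.3% of all windows. TATAAA was in 5.95% and 4.601% (13.6% of all), TGANTCA, the AP-1 site, in 4.94% and 3.67% (7.81% of all), and GGAATG, the site of TEAD factors, in 10.9% and 10.2% (14.7% of all). GCGCATGC, the core bound by NRF1, was in 6.72% and 5.80% (2.71% of all), and AAGATGGC, bound by YY1, in 5.29% and 4.54% (2.74% of all). Each motif was searched on both strands, and a match describes letters, not a bound site. Among the promoters printed above, the windows of Mybl2, Melk and Tdp1 held a GC box, and those of Bub1b and Selp held CCAAT.

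At day 2, H3K4me3 was still called at nearly all peaks without PSME3. Of the 5218, 4892 (93.8%) overlapped a peak in all 4 day 2 H3K4me3 lists, against 95.04% of the contrast peaks and 50.7% of all pooled cycling H3K4me3 peaks of any width. In the single day 2 libraries, 93.9%, 97.9%, 97.5% and 98.4% had a peak. Compared with contrast peaks of the same width, the difference in this share was -0.129, -0.735, -0.372 and -0.623 percentage points, a mean of -0.464 with an SD of 0.271 over 4 libraries (p = 0.13 in the same exact sign-flip test). The mean difference was -0.291 when PSME3 and H3K4me3 replicate 3 were left out (p = 0.375 in the exact test), -0.716 without replicate 1 and -0.991 when PSME3 was judged in the replicate lists alone. When peaks were matched on pooled cycling fold enrichment as well as width, the difference turned to 0.312 percentage points.

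The signal at day 2 was slightly lower at peaks without PSME3. The median fold enrichment was 6.44, 8.14, 14.95 and 10.03 in the 4 day 2 libraries, against 7.29, 9.19, 17.4 and 11.4 at contrast peaks. At the same width the log2 difference was -0.13, -0.14, -0.18 and -0.15, a mean of -0.15 with an SD of 0.023, negative in 4 of 4 libraries (exact sign-flip test, p = 0.13). Day 2 peaks covered 55.0%, 70.5%, 72.0% and 74.95% of the bases of the peaks without PSME3, and the difference from contrast peaks of the same width was -3.18, -3.90, -2.20 and -3.72 points, a mean of -3.25 with an SD of 0.761 (p = 0.13 in the same exact test). The cycling libraries, which the rule used, showed log2 differences of -0.11, -0.12 and -0.15, a mean of -0.13 ± 0.021 (SD, n = 3), given with no test. With pooled cycling fold enrichment matched too, the day 2 difference shrank to -0.03 on the log2 scale and to -1.24 points of coverage. The p-values reflect the signs and relative sizes of the differences over these libraries only, which are 1 of each preparation.

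**Figure D4:**
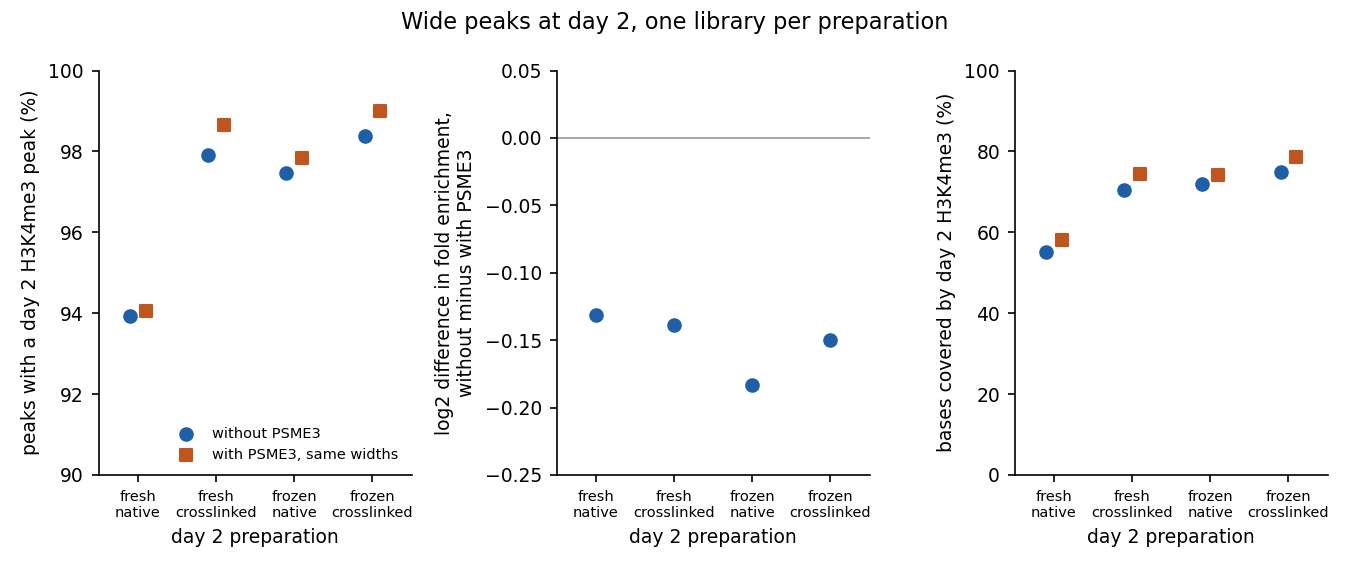
Wide cycling H3K4me3 peaks in the 4 day 2 H3K4me3 libraries: percent with a day 2 peak (left, axis from 90%), log2 difference in fold enrichment between peaks without and with PSME3 at the same width (middle), and percent of bases covered (right). Circles are peaks without PSME3 and squares contrast peaks weighted to the same widths, with 1 library per preparation and no error bar. All 4 log2 differences lie between -0.18 and -0.13.

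A few of the peaks without PSME3 were not called at day 2. No day 2 H3K4me3 list held a peak at 55 of the 5218 (1.05%), against 15 of the contrast peaks (0.465%). These 55 were weak, with a median pooled fold enrichment of 2.98, and only 29.1% lay near a gene boundary, against 88.4% of those kept in all 4 lists. The 15 contrast peaks were alike in this, with a median of 3.03 and 26.7% near a boundary. The strongest of them lay inside Cubn, which encodes an endocytic receptor (chr2:13480779-13483515), with a pooled fold enrichment of 11.8 and values of 14.3, 6.26 and 12.7 in the 3 cycling replicates. The next lay at Selp, the adhesion molecule P-selectin (7.01, with 9.88, 3.88 and 6.70 in the replicates), nearest to Spcs3 (6.04), at Gm29906 (4.90), at Il18rap, a subunit of the interleukin-18 receptor (4.21), and nearest to Gm32357 (4.20). All 6 had a value in every cycling replicate and none at day 2, where a call depends on depth. The peaks were chosen by their absence from the day 2 lists, so this is a description.

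Of the 30 peaks without PSME3 at cell cycle genes, 16 stood lower in the ranking at day 2. Each wide peak was ranked by fold enrichment among the wide peaks of its library, and its percentile was compared between cycling and day 2 cells. Over the 4892 peaks without PSME3 that had a peak in all 7 libraries, the median shift in mean percentile was -1.59 points, with 5th and 95th percentiles of -25.7 and 21.2. Of the wide peaks of both kinds, 13.4% had a higher percentile in all 3 cycling than in all 4 day 2 libraries and 7.65% a lower one. Among peaks without PSME3 these shares were 14.6% and 7.22%. Of the 30 at cell cycle genes, 16 (53.3%) were lower in all 4 day 2 libraries than in all 3 cycling ones, 1 (3.33%) was higher, and their median shift was -24.3 points. The same held in part for the contrast: of 12 contrast peaks at cell cycle genes, 4 were lower and 1 higher, with a median shift of -13.9.

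The 5 largest falls were chosen on this measure and are described without a test. Bub1b, a kinase of the spindle checkpoint (chr2:118597837-118600486), stood at the percentiles 89.5, 74.7 and 95.3 in the cycling replicates and at 7.57, 17.6, 18.6 and 20.2 in the day 2 libraries. Mybl2, the transcription factor B-Myb (chr2:163054075-163056559), stood at 69.4, 81.9 and 98.2 and then at 10.1, 9.98, 14.6 and 20.5. The peak at Ccna2 (cyclin A2) and Bbs7 went from 84.8, 85.1 and 61.9 to 8.24, 12.03, 11.1 and 12.3. Cycling and day 2 values did not overlap for any of these 3 peaks. Sapcd2, a regulator of spindle orientation, and Melk, a mitotic kinase, shifted by -68.5 and -62.4 points. At Bub1b the fold enrichment itself was 23.1, 11.6 and 33.8 in cycling cells and 3.64, 5.74, 10.4 and 7.39 at day 2, so the mark was still called there.

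The other cell cycle genes whose day 2 percentiles all lay below the cycling ones included genes of S phase and of mitosis. For S phase they were the helicase subunits Mcm2 (shift of -24.5 points), Mcm3 (-18.1) and Mcm6 (-34.6), the licensing factor Cdc6 (-44.8) and Tyms, thymidylate synthase (-24.9). For mitosis they were Ccnb2 (-34.6), Plk1 (-36.2), Aurkb (-28.3), Cdc20 (-28.8), Cenpe (-28.4) and Cenpf (-43.4). E2f7 (-51.6), E2f4 (-32.3) and the proliferation marker Mki67 (-34.1) lay among them too. Cdkn2c, which encodes the CDK inhibitor p18, was the 1 cell cycle gene near a peak without PSME3 whose percentiles were higher in all day 2 libraries, at 32.0, 32.9 and 31.7 against 48.4, 66.5, 38.8 and 55.3. Mcm7 (22.1), Rb1 (10.5), Rbl1 (2.30) and Ccnd2 (6.12) shifted upward with overlapping values. No RefSeq start of their own lay in the peaks at Ccna2, Aurkb, E2f4, Cdkn2c, Rb1 and Ccnd2. The promoter table holds 46 of the 58 listed cell cycle genes, so a start can also be missing from it.

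At cytosolic ribosomal protein genes, more peaks stood higher than lower at day 2, and most overlapped. Of 40 without PSME3, 10 (25%) had higher percentiles in all 4 day 2 libraries than in all 3 cycling ones and 1 (2.50%) lower, with a median shift of 12.2 points. Rpl8 went from 40.5, 57.1 and 34.5 to 91.3, 97.6, 82.6 and 97.0, Rpl41 from 39.9, 86.6 and 63.7 to 89.3, 96.3, 89.1 and 96.7, and Rpl15 by 29.1 points. Rps16 was the exception, at 65.1, 55.0 and 38.9 against 20.6, 25.7, 27.9 and 29.6. Of 8 contrast peaks at such genes, 1 was higher and 3 lower. The Rpl8 peak held no RefSeq start of Rpl8 itself, and the promoter table holds 62 of the 82 listed genes. Mitochondrial ribosomal protein genes (median shift of -0.18 points over 56 peaks) and respiratory chain genes (1.43 over 49) lay near the median of all peaks.

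**Figure D5:**
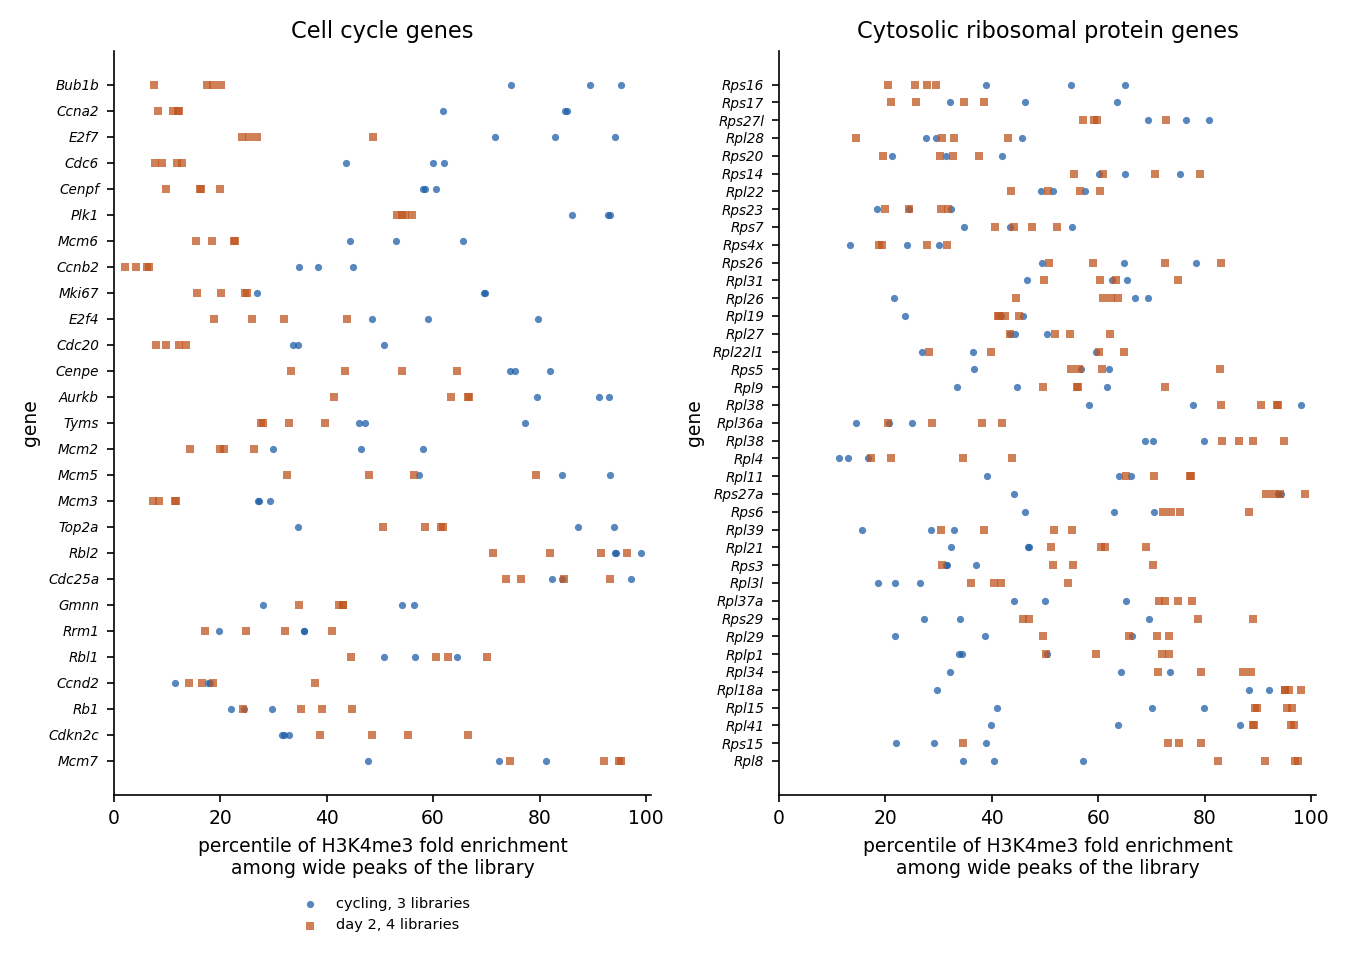
Percentile of H3K4me3 fold enrichment among the wide peaks of each library, for peaks without PSME3 at cell cycle genes (left) and cytosolic ribosomal protein genes (right), ordered by shift. Circles are the 3 cycling libraries and squares the 4 day 2 libraries. Bub1b, at the top left, goes from at least 74.7 to at most 20.2, and Rpl8, at the bottom right, from at most 57.1 to at least 82.6. Rpl38 appears for each of its 2 peaks.

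The largest rises lay at genes of other kinds. The peak inside Rbfox2, a splicing regulator active in muscle (chr15:77160183-77164336), stood at 5.21, 12.9 and 12.7 in cycling cells and at 97.7, 84.8, 89.4 and 89.5 at day 2, a shift of 80.1 points. It lay inside the gene, over 1 kb from its boundaries, with no RefSeq start inside. Cbx5, the heterochromatin protein HP1 alpha, shifted by 63.8 points, the peak at Clic1 and Ddah2 by 59.9, that inside Arhgap24, an activator of Rac GTPase activity, by 56.8, and that at Dtx4, a Notch pathway ubiquitin ligase, by 53.6. These 5 were likewise chosen on the shift. Of the muscle genes, the peak at Bin1, a membrane-bending protein of the T tubules, went from 59.8, 61.8 and 58.6 to 90.7, 94.6, 93.0 and 94.1. Pitx3 went from 12.6, 20.1 and 15.4 to 36.9, 33.9, 42.3 and 33.4. Tnnc1, the troponin C of slow and cardiac muscle, had the largest shift of the listed muscle genes near peaks without PSME3 with a peak in all 7 libraries, -47.8 points, from 75.5, 97.9 and 97.9 to 62.5, 38.4, 28.6 and 41.2, and no RefSeq start of its own lay in that peak. Tcf12 and Dock5 were lower in all 4 day 2 libraries as well (shifts of -16.6 and -16.1 points), and Jam2 stayed at or above 98.2 in all 7. Msc, Myf6, Vgll2 and Dock1 shifted by -2.31, 0.046, 1.95 and -11.5 points with overlapping values. Of the 5 ranked peaks at myogenic regulators 1 was lower and 1 higher, and of the 4 at fusion genes also 1 and 1. No RefSeq start of their own lay in the peaks at Bin1, Dock5, Jam2, Msc and Myf6. The promoter table holds only 13 of the 26 fusion genes, so a start can also be missing from it. Among the 12 strongest peaks, Slc1a5 shifted by -42.4 points, from 90.5, 91.2 and 96.1 to 53.1, 45.4, 56.6 and 45.9.

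The cycling libraries were all frozen and native. Of the day 2 libraries only the frozen native one matches them in handling, and there Bub1b stood at 18.6, Mybl2 at 14.6, Rpl8 at 82.6 and Rbfox2 at 89.4. In the other 3 libraries, differentiation and preparation cannot be told apart. Whether the day of the assay moved with differentiation was not tested.

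PSME3 was called at few wide peaks of either kind at day 2. The 4 day 2 PSME3 lists held 23, 18, 186 and 77 peaks. They overlapped 2, 2, 103 and 36 of the contrast peaks (0.062%, 0.062%, 3.2% and 1.12%). Of the peaks without PSME3 they overlapped 0, 0, 3 (0.057%) and 0. The 3 peaks lay at 5031439G07Rik (pooled H3K4me3 fold enrichment 10.2), inside A430078I02Rik (5.89) and at Tom1, an endosomal adaptor (13.4). At Tom1 the H3K4me3 percentile was 74.3, 59.4 and 39.6 in cycling cells and 96.0, 93.5, 96.3 and 89.2 at day 2. With so few peaks per list, a site below the threshold of these libraries cannot be told from a site without PSME3.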

How the data were processed

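Of 21 CUT&RUN libraries of C2C12 cells, 14 with a peak list were used, beside both pooled lists from cycling cells. IgG libraries (7) were not analysed here. Reads were trimmed by the authors (Trim Galore) and mapped to mm10 (Bowtie2), and MACS2 called peaks per library and on the pooled cycling replicates. Versions, options and control are not given in the sources used here. Each deposited list holds fold enrichment (a ratio of signal to background) beside -log10 p-values and q-values. No listed q-value reached 0.1.

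The peaks, gene lists and tests were chosen with earlier results of these data known. An overlap needed at least 1 bp. The code (Python 3.11.15, scipy 1.17.1, pandas 2.3.3, numpy 2.4.6) was tested on simulated data. Contrast peaks were weighted to the members' widths in 6 classes of 500 bp. Where several peaks of a list overlapped, the strongest was used. Day 2 differences were tested over libraries with a two-sided exact sign-flip permutation test, and percentiles were taken among the wide peaks with a peak in that library. The gene table (GRCm38.p6, 49997 entries) has no strand, so a boundary is a start or an end. Start sites and windows came from a RefSeq promoter table of 32851 rows of the same build, which gives strand and holds no window for 1 autosome.

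The peaks named are the 12 strongest, the 6 strongest of those in the fewest day 2 lists, the 5 largest shifts in each direction, the widest, those at the width limits, list members, and the 4 contrast peaks with the highest PSME3 fold enrichment. The 24 gene lists included markers of other cell types. Of the lists, 1 is not reported here. X members and peaks with PSME3 at day 2 were added after their values were seen, and so was the count of peaks whose percentiles did not overlap. The alternatives, whose effect is given at the end, changed the PSME3 criterion, the widths, the replicates, the gene boundary, the matching, the day 2 threshold and the measure of strength.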

Additional observations from a re-analysis of the deposited data

How the results depend on the processing

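No paired analysis was possible because the groups that share replicate numbers, cycling PSME3 and H3K4me3, are targets of different antibodies that no test compares, and the day 2 libraries that are tested, with both kinds of peak taken within each library, carry no number. The number of peaks without PSME3 changed from 5218 to 3237 with widths of 2500 to under 4500 bp, which leaves fewer peaks, to 6666 when a PSME3 peak had to reach a q-value of 0.01, and ranged from 5240 to 5448 without 1 replicate of both antibodies. The share near a gene boundary was 87.7% with the narrower widths, 88.2% at 3 kb and 79.7% with protein-coding genes alone, against 85.1% in the main setting. For contrast peaks it was 87.2% with PSME3 judged in the replicate lists alone, 87.5% with the stricter PSME3 q-value, 87.9% with the narrower widths, 88.4% at 3 kb and 81.7% with protein-coding genes alone, against 85.9%. The cycling log2 difference was -0.10 with the stricter PSME3 q-value, -0.18 without width classes and -0.20 when strength was read from -log10 q, against -0.13, and ranged from -0.15 to -0.12 without 1 replicate. The day 2 difference in presence turned from -0.464 to 0.312 percentage points when peaks were also matched on fold enrichment, an alternative chosen after the data were seen, and was -0.291 without replicate 3 of both antibodies, -0.716 without replicate 1, -0.488 without replicate 2, -0.991 with the replicate lists alone and -0.975 without width classes, while those in log2 fold enrichment and coverage stayed negative under all alternatives run, from -0.19 to -0.03 and from -3.95 to -1.24 points. With strength read from -log10 q, the day 2 log2 difference was -0.26. Leaving out each day 2 library gave -0.576 to -0.374 points, -0.16 to -0.14 and -3.60 to -3.03 points. The share of X peaks without PSME3, recomputed after the pattern was seen, was 97.5% with the stricter q-value and 93.3% to 94.6% without 1 replicate. No read numbers are given, so depth limits every absent call.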
